A study of Mus musculus with 12 samples.

Results

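The 10 non-clustered protocadherins *Pcdh1*, *Pcdh7*, *Pcdh8*, *Pcdh9*, *Pcdh10*, *Pcdh11x*, *Pcdh17*, *Pcdh18*, *Pcdh19* and *Pcdh20* were examined in the dorsolateral geniculate nucleus (dLGN), the visual relay nucleus of the thalamus, of newborn (P0) mice. They were found by gene symbol, as 10 of the 24480 genes in each count table, and all 10 passed the filter on low counts in both lines. RNA-seq had been performed on 12 libraries in 4 groups of 3, each library being a pool of dLGNs dissected from 3 animals of one genotype. *Sox2* mutants were homozygous for a floxed *Sox2* allele (Sox2flox/flox) and carried Ror-alphaCre, which is inserted in the *Rora* gene and deletes floxed alleles in postmitotic cells of the sensory thalamus. *Nr2f1* mutants were Nr2f1 flox/flox with the same Cre. As the study's methods state, controls were littermates without Cre, homozygous or heterozygous for the floxed allele of their line. The labels of the *Nr2f1* controls both name the Cre allele and state that no Cre is present, and the methods were followed. A floxed allele was thus present in all groups, the Cre in mutants only, so that an effect of the Cre insertion and an effect of the deletion cannot be told apart within a line.

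Non-clustered protocadherins are single-pass transmembrane adhesion proteins with extracellular cadherin repeats, which bind mainly the same protein on a neighbouring cell. The delta1 members (*Pcdh1*, *Pcdh7*, *Pcdh9* and *Pcdh11x*) have a longer extracellular part than the delta2 members (*Pcdh8*, *Pcdh10*, *Pcdh17*, *Pcdh18* and *Pcdh19*), and *Pcdh20* is usually set apart from both. Several delta2 members recruit the WAVE complex, a regulator of actin branching, and delta1 members carry a docking motif for protein phosphatase 1. In the brain they are known for their patchy expression in nuclei and layers, and for roles in axon growth, axon sorting and synapse formation.

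The sequences just upstream of 3 delta2 members whose RNA was higher in *Sox2* mutants are printed to show which letters surround their starts. They are from the promoter table of RefSeq on GRCm38.p6, written 5′ to 3′ on the strand of the gene, trimmed to the bases upstream of every gene model used here, with each CG dinucleotide in capitals. *Pcdh17* is shown from chr14:84443313-84443562 (plus strand), *Pcdh18* from chr3:49757384-49757566 (minus strand) and *Pcdh8* from chr14:79771313-79771562 (minus strand).
Pcdh17: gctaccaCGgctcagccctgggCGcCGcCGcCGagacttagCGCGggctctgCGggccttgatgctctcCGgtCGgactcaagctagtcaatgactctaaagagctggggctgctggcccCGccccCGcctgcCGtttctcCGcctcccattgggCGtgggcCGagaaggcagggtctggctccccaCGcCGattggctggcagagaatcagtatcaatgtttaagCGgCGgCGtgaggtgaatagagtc
Pcdh18: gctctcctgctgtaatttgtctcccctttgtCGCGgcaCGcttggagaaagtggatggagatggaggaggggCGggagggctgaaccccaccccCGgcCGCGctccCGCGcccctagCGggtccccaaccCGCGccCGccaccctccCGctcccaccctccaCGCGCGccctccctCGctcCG
Pcdh8: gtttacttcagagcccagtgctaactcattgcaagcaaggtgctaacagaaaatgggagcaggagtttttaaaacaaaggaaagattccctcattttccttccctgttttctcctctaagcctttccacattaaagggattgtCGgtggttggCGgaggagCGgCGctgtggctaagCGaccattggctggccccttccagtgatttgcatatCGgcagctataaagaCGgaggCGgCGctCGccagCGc
The *Pcdh17* stretch of 250 bases had 64.8% G and C and 21 CG dinucleotides, and that of *Pcdh8* (250 bases) 51.2% and 11. The 183 bases shown for *Pcdh18* had 72.1% and 19, and its whole 250 bases before the start 68.0% and 23. The 250 bases of other members ran from 42.4% and 3 in *Pcdh20* to 63.2% and 22 in *Pcdh10* and 69.2% and 16 in *Pcdh19*. Over the 250 bases before the start in all 32851 windows of the table, the medians were 52.4% and 6. The table held 9 windows, running from 250 bases before to 50 after a start, for 8 of the 10 genes. The letters CATTGT, one form of the core site of SOX proteins, were searched on both strands and found in 0 of these 9 windows, against 12.6% of all windows. AGGTCA, the core letters bound by many nuclear receptors, was found in 0 of the 9, against 16.3% of all windows. These 6 letters in tandem with 1 base between the copies, a form that includes the single one, were found in 0 of the 9 and in 0.0396% of all windows. These letters are merely not in these windows. Other forms of the SOX core, and other sequence around the genes, were not searched.

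Library totals lay between 39293465 and 50095344 counts. Levels are given as CPM, the count relative to the TMM-adjusted library total, and a gene was called changed at an FDR below 0.01 in the quasi-likelihood F-test of edgeR over all genes tested. In keeping with the labels, *Sox2* lay at 361 to 382 CPM in *Sox2* controls and 116 to 152 CPM in *Sox2* mutants, and *Nr2f1* at 311 to 380 CPM in *Nr2f1* controls and 101 to 151 CPM in *Nr2f1* mutants. *Sox2* was also lower in *Nr2f1* mutants (log2 fold change -0.55, edgeR FDR = 0.00635). *Nr2f1* lay at 308 to 345 CPM in *Sox2* controls and 221 to 313 CPM in *Sox2* mutants, which overlapped and was not called (log2 fold change -0.39, edgeR FDR = 0.0559). Thalamic glutamatergic neuron markers, *Slc17a6* and *Tcf7l2* among them, were detected in all 12 libraries. *Nr2f1* mutant pool A held 0 counts of the 4 male-specific genes used here, and pools of both lines differed widely in these genes. Nothing states which pool numbers mark shared litters, and p-values measure the spread between pools.

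In control dLGN the 10 genes fell into an upper and a lower range of level. Per length (CPM per kb of the longest coding transcript in GENCODE), *Pcdh7* stood first in *Sox2* controls with 23.7 ± 3.56 CPM per kb (SD, n = 3), followed by *Pcdh10* with 22.2, *Pcdh9* with 19.7, *Pcdh19* with 16.8 and *Pcdh1* with 14.3. The lower range held *Pcdh8* with 4.40, *Pcdh18* with 3.24, *Pcdh17* with 3.03, *Pcdh11x* with 2.78 and *Pcdh20* with 1.25 CPM per kb. The ranges over the 3 libraries overlapped between each neighbour in this order except between *Pcdh1* and *Pcdh8*, and between *Pcdh11x* and *Pcdh20*. *Nr2f1* controls held the same 5 genes in each range, with *Pcdh7* at 27.4 and *Pcdh9* at 27.1 CPM per kb at the top and *Pcdh20* at 0.878 at the bottom. There, neighbours overlapped between *Pcdh7* and *Pcdh9*, *Pcdh10* and *Pcdh19*, *Pcdh11x* and *Pcdh17*, and *Pcdh17* and *Pcdh18*. The span from highest to lowest was 19.0-fold in *Sox2* controls and 31.2-fold in *Nr2f1* controls. With the mean length over coding transcripts in place of the longest, *Pcdh7* stood at 56.0 and 64.9 CPM per kb in *Sox2* and *Nr2f1* controls, and the upper 5 genes remained the upper 5. The order inside the lower range then changed in both control groups, and that inside the upper range in *Sox2* controls. The higher of these genes stood above most tested genes. In *Sox2* controls, 80.4% of the 15142 tested genes with a known length lay below *Pcdh7*, 69.6% below *Pcdh1* and 22.0% below *Pcdh20*.

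**Figure D1:**
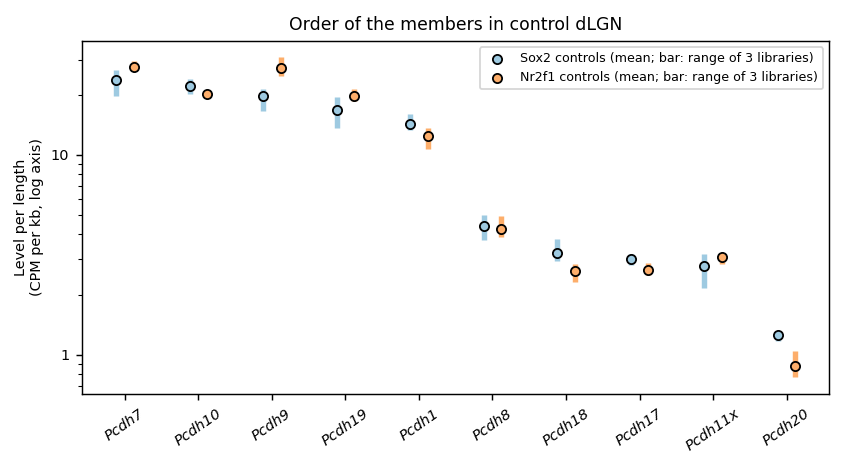
Level per length of the 10 genes in the control libraries, on a log axis in CPM per kb, with points for group means and bars for the range of 3 libraries (blue: *Sox2* controls, orange: *Nr2f1* controls). *Pcdh7*, *Pcdh10*, *Pcdh9*, *Pcdh19* and *Pcdh1* lie above 10 CPM per kb in both control groups, and the other 5 lie below 6.

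In *Sox2* mutants 4 of the 10 genes were called changed. *Pcdh17*, *Pcdh18* and *Pcdh8*, all of the delta2 group, rose, and *Pcdh7*, of the delta1 group, fell to 47.7% of its control mean. Of all 15602 genes tested in this line, 8.08% were called, 3.90% higher and 4.19% lower in mutants. The control and mutant libraries did not overlap for 7 of the 10 genes, against 37.9% of all genes. The median log2 fold change of the 10 was 0.44, beside 0.00050 over all genes tested.

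In *Nr2f1* mutants 2 of the 10 genes, *Pcdh11x* and *Pcdh17*, were called, and rose to 161% and 166% of their control means. Of all 15600 genes tested, 2.54% were called and 1.22% were called higher. The libraries did not overlap for 6 of the 10 genes, against 28.6% of all genes, and the median log2 fold change of the 10 was 0.25, beside 0.014 over all genes. *Pcdh17* was called in both mutants and in the same direction, whereas 1.17% of all genes tested in both lines were called in both. For a gene whose 3 mutant and 3 control libraries do not overlap, the two-sided exact permutation p was 0.1, which is the smallest this design allows, so that calls rest on edgeR. Since whole tissue was sequenced, fewer cells of a type and less RNA per cell cannot be told apart.

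**Figure D2:**
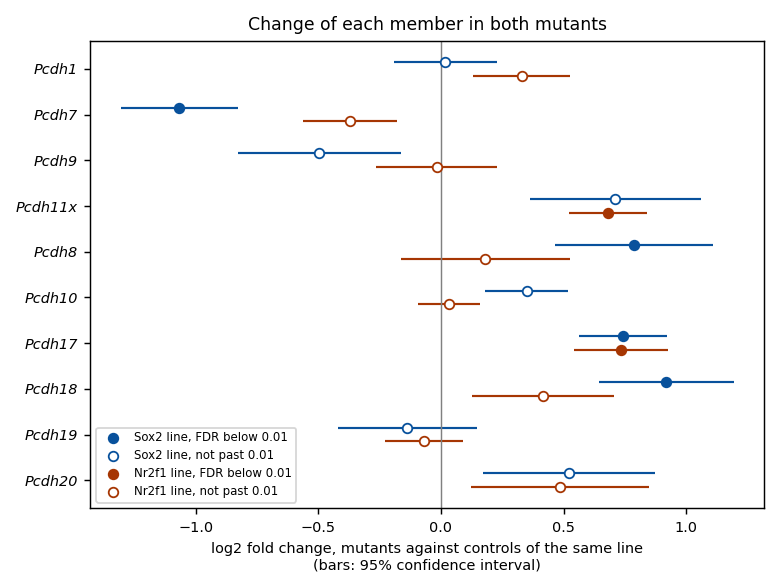
Log2 fold change of each gene in mutants against the controls of its line (x axis), with the 95% confidence interval from edgeR as a bar (blue: *Sox2* line, brown: *Nr2f1* line, filled: FDR below 0.01). *Pcdh7* lies furthest to the left, at -1.07 in *Sox2* mutants, and *Pcdh17* lies at 0.74 and 0.73 in the respective mutants.

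Among delta1 members, *Pcdh7* (chromosome 5, 57717967 to 58133230, plus strand, on GRCm38), a homophilic adhesion protein with roles in dendrites and synapses, was the only one of the 10 to be called lower in either mutant. It stood at 233, 218 and 173 CPM in *Sox2* control pools 1, 2 and 3, and at 98.4, 106 and 93.9 CPM in mutant pools 1, 3 and 4. Each mutant pool lay well below the lowest control pool. The log2 fold change was -1.07 (95% CI -1.30 to -0.83, edgeR FDR = 0.000217). *Nr2f1* control pools B, D and E had 231, 234 and 259 CPM, and mutant pools A, B and C 199, 199.5 and 160.3 CPM. Here too every mutant pool lay below every control pool, but the change was smaller, at -0.37 (95% CI -0.56 to -0.18), and missed the threshold (edgeR FDR = 0.0306). The antisense gene *4932441J04Rik* shares 2235 exon bases with *Pcdh7*, and whether counting used strand is not stated. Its own count reached at most 19.0, or 0.16% of the *Pcdh7* count of the same library.

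*Pcdh11x*, the X-linked delta1 member (chromosome X, 120290259 to 120910619, plus strand), was higher in all mutant pools of both lines. It stood at 25.9, 29.1 and 29.3 CPM in *Nr2f1* control pools B, D and E, and at 46.9, 45.4 and 43.0 CPM in mutant pools A, B and C. The groups were far apart beside their spread, and the log2 fold change of 0.68 (95% CI 0.52 to 0.84) was called (edgeR FDR = 0.000669). In the *Sox2* line it stood at 29.2, 27.3 and 19.6 CPM in control pools 1, 2 and 3, and at 46.4, 34.4 and 43.7 CPM in mutant pools 1, 3 and 4. These groups did not overlap either, and control pool 3 and mutant pool 3 were the lowest of their groups. The log2 fold change was 0.71 (95% CI 0.36 to 1.06), close to that in *Nr2f1* mutants but with a wider interval, and missed the threshold (edgeR FDR = 0.0123). It passed in 10 of 15 alternative settings, one of them being the fit without control pool 3.

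Because *Pcdh11x* lies on the X chromosome and the pools differed in sex, its values were read beside *Xist*, the RNA of the inactive X, and the male-specific genes. *Xist* was near 0 in *Sox2* control pool 2 (0.189 CPM), *Sox2* mutant pool 1 (0.463 CPM) and *Nr2f1* control pool E (0.283 CPM), while *Nr2f1* mutant pool A held 1150 CPM of *Xist* and no male-specific RNA. Between the pools of the *Sox2* line with almost no *Xist*, *Pcdh11x* was 27.3 CPM in the control pool and 46.4 CPM in the mutant pool, a comparison of single pools. Over the 6 pools of a line, controls and mutants together, Pearson's r of *Pcdh11x* with the mean of the male-specific genes was 0.472 for the *Sox2* line. For the *Nr2f1* line it was -0.631, and there the male-specific genes summed to 43.6 to 97.3 CPM in controls and 0.0 to 52.0 CPM in mutants. In *Nr2f1* mutants *Pcdh11x* was called without mutant pool A as well, and in each of the 6 fits that left out a pool. Mutant pools B and C still held more *Xist* (506 and 532.5 CPM) than any control pool of this line (0.283 to 484 CPM). Leaving out pool A thus does not even out sex between the groups, and sex and genotype cannot be fully told apart in this line. With the mean of the male-specific genes as a covariate, the log2 fold change of *Pcdh11x* was 0.65 (edgeR FDR = 0.0179). That of *Pcdh17* was 0.66 (edgeR FDR = 0.0269), so that 0 of the 10 genes were called in *Nr2f1* mutants. In that fit 6 of the 10 had an unadjusted edgeR p below 0.05, and 48 of all 15600 genes were called (0.308%). The share of all genes at an unadjusted p below 0.05 is not given here or below. Such counts thus have no background beside them.

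*Pcdh9*, a delta1 member widespread in brain (chromosome 14, 93013410 to 93890679, minus strand), stood at 137, 140 and 109 CPM in *Sox2* control pools 1, 2 and 3, and at 80.3, 114.5 and 78.6 CPM in mutant pools 1, 3 and 4. Mutant pool 3 lay above the lowest control pool, and the log2 fold change of -0.50 (95% CI -0.83 to -0.16) missed the threshold (edgeR FDR = 0.0428). Without mutant pool 3 it was -0.69 and passed. In the *Nr2f1* line the groups overlapped, with 161 to 202 CPM in controls and 148 to 197 CPM in mutants, and the log2 fold change was -0.018 (95% CI -0.26 to 0.23).

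*Pcdh1*, a delta1 member also known from epithelia, did not pass the threshold in either line. It stood at 74.1, 69.1 and 58.1 CPM in *Nr2f1* control pools B, D and E and at 81.0, 81.4 and 90.3 CPM in mutant pools A, B and C. These groups did not overlap, with a log2 fold change of 0.33 (95% CI 0.13 to 0.52, edgeR FDR = 0.0530). In the *Sox2* line they overlapped, with 72.5 to 86.5 CPM in controls and 71.6 to 86.2 CPM in mutants, and the log2 fold change was 0.018 (95% CI -0.19 to 0.23).

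Among delta2 members, *Pcdh17* (chromosome 14, 84443563 to 84539002, plus strand), which recruits the WAVE complex at contacts between axons and has roles at synapses, rose in both mutants. It stood at 35.4, 36.6 and 32.1 CPM in *Sox2* control pools 1, 2 and 3, and at 59.5, 54.0 and 60.6 CPM in mutant pools 1, 3 and 4. *Nr2f1* control pools B, D and E had 28.8, 29.6 and 33.0 CPM, and mutant pools A, B and C 55.8, 46.0 and 50.3 CPM. In each line all mutant pools lay above all control pools, and the groups were far apart beside their spread. The log2 fold change was 0.74 (95% CI 0.56 to 0.92, edgeR FDR = 0.000336) in *Sox2* mutants. It was 0.73 (95% CI 0.54 to 0.92, edgeR FDR = 0.00125) in *Nr2f1* mutants. *Pcdh17* was called in all 15 alternative settings of the *Sox2* line and in 13 of 14 of the *Nr2f1* line, the exception being the male-specific covariate.

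*Pcdh18* (chromosome 3, 49743296 to 49757325, minus strand), a delta2 member that binds the adaptor Dab1, was called in *Sox2* mutants and had the largest increase of the 10 in either line. It stood at 15.2, 15.5 and 19.6 CPM in *Sox2* control pools 1, 2 and 3, and at 27.8, 32.9 and 34.3 CPM in mutant pools 1, 3 and 4. All mutant pools lay above the highest control, pool 3. The log2 fold change was 0.92 (95% CI 0.64 to 1.19, edgeR FDR = 0.00106). In the *Nr2f1* line the values were 14.8, 14.2 and 11.9 CPM in control pools B, D and E and 17.95, 15.4 and 21.2 CPM in mutant pools A, B and C. Mutant pool B was only just above control pool B, and the log2 fold change of 0.42 (95% CI 0.13 to 0.71) was not called (edgeR FDR = 0.0826). *Pcdh18* lies 15.1 Mb and *Pcdh10* 10.7 Mb from *Sox2* on the same chromosome.

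*Pcdh8* (chromosome 14, 79766775 to 79771312, minus strand), also known as arcadlin for its induction by neuronal activity, stood at 17.7, 20.1 and 15.01 CPM in *Sox2* control pools 1, 2 and 3, and at 32.6, 24.6 and 34.1 CPM in mutant pools 1, 3 and 4. The mutant pools lay above all controls, with pool 3 the closest to them. The log2 fold change of 0.79 (95% CI 0.47 to 1.11) was called (edgeR FDR = 0.00542), but not without any one of control pools 1 and 2 and mutant pools 1 and 4, nor with the male-specific covariate (FDR of at most 0.0297, log2 fold change 0.70 to 0.92 over the settings). *Nr2f1* controls at 15.5, 19.9 and 15.9 CPM overlapped mutants at 20.7, 14.97 and 22.5 CPM. The log2 fold change there was 0.18 (95% CI -0.16 to 0.52).

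*Pcdh10*, a delta2 member that also recruits the WAVE complex and acts in axon growth through the ventral forebrain (chromosome 3, 45378398 to 45435623, plus strand), was the most abundant delta2 member per length. In the *Sox2* line it stood at 197, 184 and 166 CPM in control pools 1, 2 and 3 and at 229.5, 229 and 239.8 CPM in mutant pools 1, 3 and 4. The mutant pools lay close together above all controls, and the log2 fold change of 0.35 (95% CI 0.18 to 0.52) narrowly missed the threshold (edgeR FDR = 0.0114). It passed in 8 of 15 alternative settings. In the *Nr2f1* line *Pcdh10* lay at 158 to 172 CPM in controls and 159 to 179 CPM in mutants, with a log2 fold change of 0.035 (95% CI -0.092 to 0.16).

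*Pcdh19*, the X-linked delta2 member, whose human counterpart is mutated in an epilepsy of females, overlapped between mutants and controls of both lines. It lay at 141 to 200.5 CPM in *Sox2* controls and 138 to 174 CPM in mutants, and at 190.5 to 219.5 CPM in *Nr2f1* controls and 176 to 204 CPM in mutants. The log2 fold changes were -0.14 (95% CI -0.42 to 0.15) and -0.069 (95% CI -0.23 to 0.091), respectively.

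*Pcdh20* (chromosome 14, 88464743 to 88471396, minus strand) had the lowest level of the 10. It stood at 6.87, 6.15 and 6.62 CPM in *Sox2* control pools 1, 2 and 3 and at 8.82, 7.80 and 11.6 CPM in mutant pools 1, 3 and 4. For the *Nr2f1* line the values were 5.45, 4.03 and 4.33 CPM in control pools B, D and E and 5.87, 5.83 and 7.57 CPM in mutant pools A, B and C. The groups did not overlap in either line, but the spread among mutants was wide. Neither change was called, with log2 fold changes of 0.52 (95% CI 0.17 to 0.87, edgeR FDR = 0.0428) in *Sox2* mutants and 0.48 (95% CI 0.12 to 0.85, edgeR FDR = 0.103) in *Nr2f1* mutants. Without *Sox2* mutant pool 4, the highest, the former was 0.34, and with the replicate block 0.30.

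**Figure D3:**
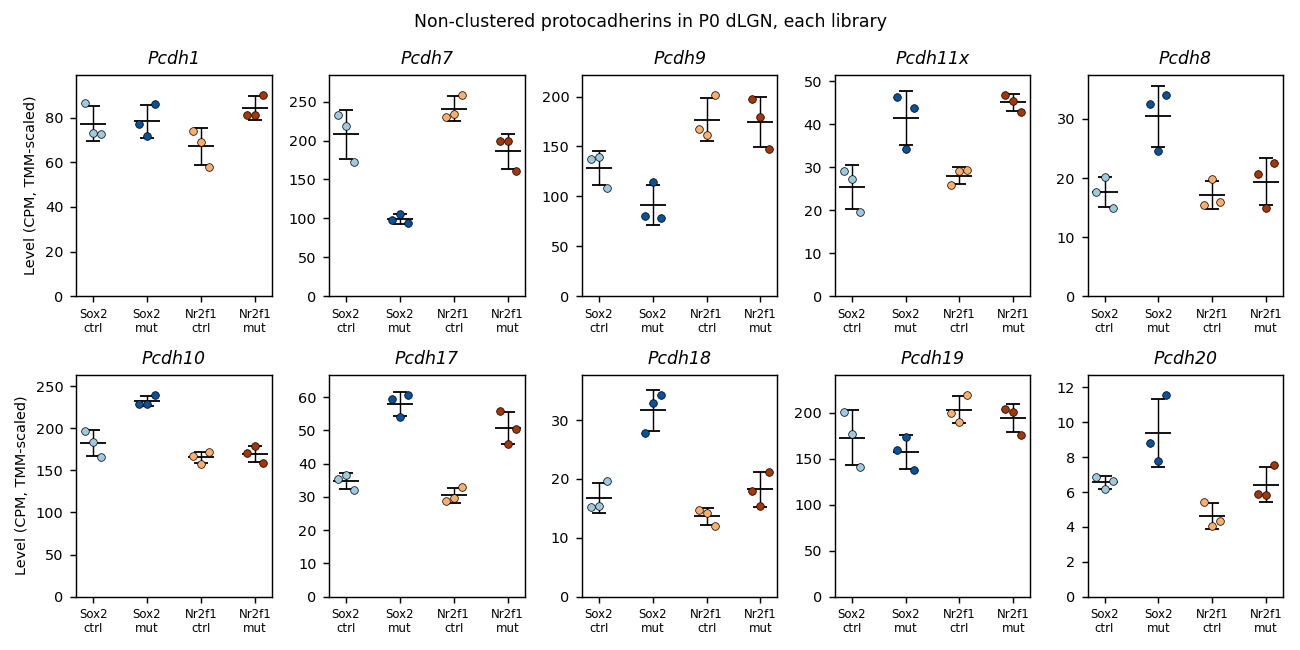
Level of each gene in each library (points; y axis in CPM from 0), with the group mean and SD as lines, for controls and mutants of the *Sox2* line (blue) and of the *Nr2f1* line (orange and brown). *Pcdh7* falls from 173 to 233 CPM in *Sox2* controls to 93.9 to 106 CPM in the mutants, and the *Pcdh17* points of the mutants lie above those of the controls in both lines.

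Whether the mutants differed was tested by the change in *Sox2* mutants minus the change in *Nr2f1* mutants, for which 1.44% of 15989 genes were called. None of the 10 genes passed the threshold in edgeR, and 1, *Pcdh7*, was called by DESeq2, which called 3.40% of all genes. An unadjusted edgeR p below 0.05 was found for 6, a count for which no share of all genes is given. For *Pcdh7* the difference was -0.69, the change in *Sox2* mutants being the lower one (95% CI -1.004 to -0.37, edgeR FDR = 0.0203). It was called in 5 of 19 alternative settings, among them the fit without *Sox2* control pool 3 and the fit without *Nr2f1* mutant pool C. The difference was 0.32 for *Pcdh10* (95% CI 0.13 to 0.52, edgeR FDR = 0.0729), 0.62 for *Pcdh8* (95% CI 0.115 to 1.116, edgeR FDR = 0.195) and 0.51 for *Pcdh18* (95% CI 0.086 to 0.93, edgeR FDR = 0.205). It was -0.47 for *Pcdh9* (95% CI -0.92 to -0.014, edgeR FDR = 0.295) and -0.30 for *Pcdh1* (95% CI -0.60 to -0.0080, edgeR FDR = 0.296), and without *Nr2f1* control pool E the latter was -0.20. The genes called in *Nr2f1* mutants had differences near 0, at 0.016 for *Pcdh17* (95% CI -0.24 to 0.27) and 0.036 for *Pcdh11x* (95% CI -0.36 to 0.43).

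The make-up of the group was described by adding the levels per length of the 10 genes. The sum itself overlapped between groups, with 97.4 to 122 CPM per kb in *Sox2* controls against 107 to 110 in mutants, and 116 to 127 in *Nr2f1* controls against 114 to 128 in mutants. The delta1 members made up 53.3% to 54.7% of the sum in *Sox2* controls and 40.0% to 42.4% in *Sox2* mutants, and the delta2 members 44.2% to 45.4% and 56.3% to 58.2%. *Pcdh7* alone went from 21.2% ± 0.858 to 10.4% ± 0.547 (SD, n = 3), and *Pcdh10* from 19.97% ± 0.677 to 26.1% ± 0.769. Mean shares of the other delta1 members went from 17.7% to 12.9% for *Pcdh9*, 12.9% to 13.35% for *Pcdh1* and 2.48% to 4.21% for *Pcdh11x*. In the *Nr2f1* line delta1 shares of 57.8% to 58.8% in controls stood against 54.5% to 57.0% in mutants, again without overlap. The *Pcdh7* share was 22.8% ± 0.560 and 17.3% ± 1.25, and that of *Pcdh9* 22.5% and 21.9%. The delta1 members *Pcdh1* (10.3% and 12.8%) and *Pcdh11x* (2.565% and 4.06%) went the other way. With the mean transcript length, delta1 shares were higher throughout, with means of 65.8% in *Sox2* controls, 52.0% in *Sox2* mutants, 69.2% in *Nr2f1* controls and 66.8% in *Nr2f1* mutants. All shares are parts of the same sum, so that a lower delta1 share raises the rest. They are descriptions and were not tested.

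**Figure D4:**
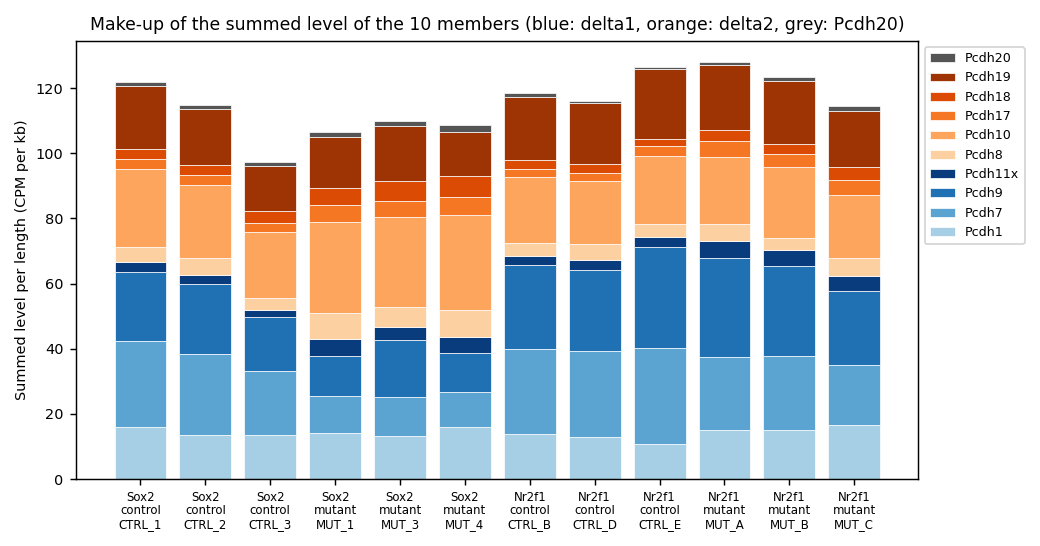
Summed level of the 10 genes in each library in CPM per kb, with delta1 members in blue, delta2 members in orange and *Pcdh20* in grey. The blue part is 42.9 to 46.6 CPM per kb in *Sox2* mutants, below the 51.9 to 66.7 of their controls, while the whole bars overlap in height.

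Across the 12 libraries, each taken relative to the control mean of its line, the 10 genes were compared with each other, and those called in either mutant with all genes. *Pcdh11x* and *Pcdh17* had a Pearson r of 0.947 with each other, *Pcdh7* and *Pcdh9* of 0.843, and *Pcdh7* and *Pcdh18* of -0.972. These values describe libraries that share genotype, line and sequencing depth. Among 15396 genes, those most like *Pcdh7* were *Dpp6*, an auxiliary subunit of A-type potassium channels (r = 0.995), *Aff3* (r = 0.990) and the non-coding *Peg13* (r = 0.989). *Pcdh17* was most like *Prkcb*, a protein kinase C (r = 0.982), *Fam65b* (r = 0.982) and *Galnt16* (r = 0.975), and *Pcdh11x* most like *Mbp*, a myelin protein gene (r = 0.978), *Prkcb* (r = 0.975) and *Sertad4* (r = 0.965). *Pcdh8* was most like *Fam205a2* (r = 0.962), *6530402F18Rik* (r = 0.955) and *Atp2b4*, a calcium pump (r = 0.954). *Pcdh18* was most like *Sall1* and *Wdfy4* (both r = 0.982) and *Nkain4* (r = 0.981).

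Markers of microglia and of astrocytes and radial glia rose beside these changes in *Sox2* mutants. Calls over all genes in this line were 8.08% by edgeR and 15.8% by DESeq2. Of 5 microglial markers, 4 were called higher, and their summed level was 83.9 to 95.3 CPM in controls and 178 to 201 CPM in mutants. Of 6 markers of astrocytes and radial glia, 4 were called higher, with sums of 1694 to 2049 CPM in controls and 2536 to 2903 CPM in mutants. Of 8 markers of thalamic glutamatergic neurons, 3 were called lower (*Slc17a6*, *Lef1* and *Rora*, the last being the gene that carries Cre) and 1 higher (*Gbx2*). Of 9 markers of GABAergic neurons, 0 were called by edgeR, but 9 had an unadjusted p below 0.05 and 6 were called by DESeq2, and their sums were 116 to 171 CPM in controls and 194 to 244 CPM in mutants. Lists of the oligodendrocyte lineage (5 genes), endothelial cells (6), pericytes (5) and meningeal and perivascular fibroblasts (5) also had 0 calls by edgeR, with 3, 5, 4 and 2 genes at an unadjusted p below 0.05 and 1, 0, 0 and 0 called by DESeq2. The myelin gene *Mbp*, which is not on the oligodendrocyte list, was called higher in *Sox2* mutants (log2 fold change 0.80, edgeR FDR = 0.0079). In *Nr2f1* mutants *Mbp* was called higher too (0.87, edgeR FDR = 0.000185). The fibroblast sums varied widely, at 895 to 1796 CPM in controls and 1375 to 3118 CPM in mutants.

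Fewer of these markers were called in *Nr2f1* mutants, where calls over all genes were 2.54% by edgeR and 7.13% by DESeq2. Of the 5 microglial markers, 0 were called by edgeR, 4 had an unadjusted p below 0.05 and 2 were called by DESeq2, and the sums were 63.8 to 72.2 CPM in controls and 78.5 to 106 CPM in mutants. Of the 6 markers of astrocytes and radial glia 1 was called higher by edgeR (*Aqp4*), 4 had an unadjusted p below 0.05 and 2 were called by DESeq2, and the sums did not overlap, at 1453 to 1543 CPM in controls and 1646 to 1802 CPM in mutants. Of the 8 thalamic markers *Lef1* was called lower and *Cdh6* higher by edgeR, 6 had an unadjusted p below 0.05 and 5 were called by DESeq2. *Rora*, which carries Cre in these mutants too, was not called by edgeR (log2 fold change -0.25, edgeR FDR = 0.204). Of the 9 GABAergic markers 0 were called by edgeR, 6 had an unadjusted p below 0.05 and 1 was called by DESeq2, with sums of 149 to 160.5 CPM in controls and 150.3 to 298 CPM in mutants. The other lists, in the order given above, had 0 calls by edgeR, with 0, 6, 0 and 5 genes at an unadjusted p below 0.05 and 0, 3, 0 and 0 called by DESeq2. The fibroblast sums were 687 to 1044 CPM in controls and 994 to 2300 CPM in mutants. None of these cell type markers was at 0 in any library, and their part in the changes of the protocadherins was not tested in either line.

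The genes that work with non-clustered protocadherins were called in a few cases. Calls by edgeR are to be read against 8.08% of all genes in *Sox2* mutants and 2.54% in *Nr2f1* mutants. For calls by DESeq2 these shares were 15.8% and 7.13%. Of 11 WAVE complex genes, 3 were called in *Sox2* mutants: *Wasf1*, the neuronal WAVE protein, fell from 188 ± 22.7 to 131.5 ± 5.74 CPM, *Wasf2* rose from 32.5 ± 1.64 to 45.8 ± 5.46 CPM, and *Nckap1l*, a subunit of blood and immune cells, rose from 9.03 ± 0.818 to 18.1 ± 1.95 CPM (SD, n = 3). In *Nr2f1* mutants 0 of the 11 were called by edgeR, 5 had an unadjusted p below 0.05 and 2 were called by DESeq2. Among 13 listed intracellular genes, *Dab1*, the adaptor of reelin signalling, fell by 0.41 on the log2 scale in *Sox2* mutants (edgeR FDR = 0.00462). Of the same 13, *Mef2c*, which is a transcription factor and not a binding partner, fell from 96.0 ± 7.21 to 48.6 ± 6.51 CPM in *Nr2f1* mutants (edgeR FDR = 0.000438). Of the 2 cadherins listed as partners, *Cdh2* and the type II cadherin *Cdh11*, the latter fell in *Sox2* mutants from 140 ± 8.12 to 69.9 ± 10.9 CPM (edgeR FDR = 0.000282). In *Nr2f1* mutants *Cdh11* was at 99.8 ± 12.8 CPM against 145 ± 17.1 CPM in controls, which missed the threshold (log2 fold change -0.54, edgeR FDR = 0.0147), and 1 of the 2 was called by DESeq2. The median log2 fold change was 0.11 in *Sox2* mutants and -0.058 in *Nr2f1* mutants for the WAVE complex, and -0.077 and -0.057 for the 13 intracellular genes.

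Other members of the cadherin superfamily were counted in the same way. Of 9 giant and seven-pass cadherins tested, *Fat1* was called higher (log2 fold change 0.49) and *Fat3* lower (-0.66) in *Sox2* mutants, and *Celsr1*, a planar polarity protein, higher in *Nr2f1* mutants (0.90). *Pcdh12* and *Pcdh15*, the other single-copy protocadherins, were not called by edgeR or DESeq2 in either line, with 0 and 2 of them at an unadjusted p below 0.05 in *Sox2* and *Nr2f1* mutants. Of 57 clustered protocadherins tested, 4 were called in *Sox2* mutants (1 higher, 3 lower) and 2 in *Nr2f1* mutants (both lower), with median log2 fold changes of -0.16 and -0.12. These shares lay near those of all genes, 8.08% and 2.54%. *Pcdhac1* and *Pcdhac2* were called lower in both lines. Their transcripts share exons within the cluster, and estimated counts of single isoforms are uncertain for that reason.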

How the data were processed

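Non-clustered protocadherins were examined in 12 RNA-seq libraries of P0 dLGN. The authors mapped their reads with STAR to RefSeq transcripts of the mouse and deposited expected counts per gene from RSEM, 1 table per line, so that the sharing of reads among transcripts had been done before deposit. The aligner's parameters, RSEM's version and the strand setting are not given in the sources used here. Of the values, 7.77% were not whole, and all were rounded. Columns were assigned to groups by their names.

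Each line's mutants were compared with its own controls in edgeR 4.0.16 (R 4.3.3) with its quasi-likelihood F-test, following TMM normalization of the genes that filterByExpr kept (a minimum of 10 counts, and 15 in total), with Benjamini-Hochberg adjustment over all genes tested and a threshold of 0.01. The interaction of line and genotype was tested over 12 libraries. Intervals are 95%. Lengths and positions came from GENCODE vM21, and gene starts from RefSeq as well. The likeness of genes was Pearson's r of log2 CPM. All 10 members are named, with the other genes of listed partner families and cell type markers that were called, and for each called member the 3 most similar genes. The members and lists were chosen with earlier results of these data known. Alternatives were FDR below 0.05, other filters and scalings, DESeq2 1.42.0, the likelihood ratio test, one fit over all libraries, a replicate block, a male-specific covariate, and leaving out each library. Tests were checked on simulated data. The comparison of member proteins was not made.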

Additional observations from a re-analysis of the deposited data

How the results depend on the processing

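Direction and call held for *Pcdh7*, *Pcdh17* and *Pcdh18* in *Sox2* mutants under all 15 alternatives. The number of the 10 genes called in *Sox2* mutants was 4, and became 8 at an FDR below 0.05 and 7 with DESeq2, where 19.8% and 15.8% of all genes were called. It was 3 to 6 when single libraries were left out, where 3.12% to 13.7% of all genes were called. In *Nr2f1* mutants it was 2, became 4 with DESeq2 (7.13% of all genes), and stayed 2 without any single library (0.843% to 5.50% of all genes). It became 0 with the male-specific covariate (0.308% of all genes), with 6 of the 10 at an unadjusted p below 0.05. For the difference between mutants it was 0. It became 1 at an FDR below 0.05 (3.36% of all genes), without a filter (1.39%), with the likelihood ratio test (3.10%) and with DESeq2 (3.40%). When single libraries were left out it was 0 to 1, with 0.822% to 1.91% of all genes called. The share of all genes called in both mutants is given for the main fits only (1.17%). The number of the 10 genes called in both was 1. It became 3 at an FDR below 0.05, with the likelihood ratio test and with DESeq2. It was 2 without a filter, with at least 10 counts in every library, with upper quartile normalization, without scaling and in one fit over 12 libraries. With the replicate block in the *Sox2* line, set beside the main fit of the *Nr2f1* line, it was also 2. It was 0 with the covariate, and 1 to 2 when single libraries were left out.

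Pool numbers 1 and 3 occur in both *Sox2* groups, and the deviations of these pairs correlated at 0.227 and 0.223. Pairs of unlike number in this line ran from -0.386 to 0.268, and nothing states what a number marks. With the replicate block, whose estimate rests on the pairs of pools 1 and 3 alone, 5 genes were called in *Sox2* mutants, *Pcdh11x* being added. In that fit 10.3% of all genes were called, and *Pcdh1* reversed to -0.092. So few pairs leave the fit little from which to estimate the spread between pools. No paired analysis was possible because only letter B is shared, as far as the *Nr2f1* line goes. *Pcdh9* in *Nr2f1* mutants reversed to 0.020 without scaling. When single libraries were left out, changes of uncalled genes crossed 0: *Pcdh1* in *Sox2* mutants (-0.056 to 0.10), *Pcdh9* (-0.11 to 0.088) and *Pcdh10* (-0.0055 to 0.075) in *Nr2f1* mutants, and the differences of *Pcdh11x* (-0.11 to 0.16), *Pcdh17* (-0.037 to 0.094), *Pcdh19* (-0.18 to 0.058) and *Pcdh20* (-0.13 to 0.19). No scaling moved the median of all genes by more than 0.044. The mean transcript length for the delta1 shares was the one alternative chosen after seeing the data. The cause of these shifts was not tested. With 3 pools a group, changes as small as that of *Pcdh10* lie at the limit of a call.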
